A study of Mus musculus with 6 samples.

Results

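The G2 and mitosis genes described here are 32 genes whose products drive entry into mitosis, build the spindle and divide the cell. They were located among the 20284 named genes of a mouse expression array through the accession listed for each probe, and a gene with several probes was represented by its brightest. All 32 had a probe, 9 of them had several, and 31 gave a signal well above background on all 6 arrays. Cenpf, a large kinetochore protein, was the exception and was well above background on 3 arrays.

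The arrays measured KSL cells, the c-Kit+ Sca1+ Lineage- fraction of blood-forming tissue that contains hematopoietic stem cells, with and without TIF1b (listed as Trim28), a corepressor that recruits chromatin-silencing enzymes to its target sites. The bone marrow knockout (KO; CreERT, Tif1b f/f; 2 samples) and its wild type (WT; CreERT, Tif1b w/w; 2 samples) came from adult marrow, and the fetal liver KO (Tie2-Cre, Tif1b f/f; 1 sample) and WT (Tie2-Cre, Tif1b w/w; 1 sample) from fetal liver. Every group carried a Cre transgene, the WT groups included, and the background strain was labelled C57BL6 or C57/BL6. Tie2-Cre is active in endothelial and blood-forming cells from embryonic life on, and CreERT is a Cre whose activity depends on a drug. The 2 tissues therefore differ in the Cre as well as in age and site, and these cannot be told apart. The labels give neither exact ages nor the animals behind each replicate, and the spread on which the p-values rest could be technical. The labels of marrow replicate 2 read Tif2b and were taken as the same gene. The description lines of the replicate 1 marrow samples also mention knockdowns of Hp1a and Hp1g, which the other labels of these samples do not.

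Cells enter mitosis when cyclin B binds the kinase CDK1 and the complex is activated by CDC25 phosphatases, with Polo-like and Aurora kinases acting alongside. The spindle checkpoint then holds the cell until every chromosome is attached, after which CDC20 lets the anaphase-promoting complex (APC/C) mark cyclin B for destruction. Most of these genes are transcribed mainly in G2 and mitosis, under a shared control by the DREAM, MYB-MuvB and FOXM1 complexes, so their summed message in a cell population is widely used as a readout of how many cells are dividing. Adult marrow stem cells are mostly quiescent, whereas fetal liver stem cells divide rapidly. In sorted bulk samples such as these, fewer cells of a type and less RNA per cell cannot be told apart.

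RefSeq promoter sequences (250 bases before to 50 after the start of the gene, build GRCm38.p6) were at hand for 25 of the 32 genes. They were searched on both strands for the cell cycle genes homology region (TTTGAA or TTTAAA), through which the DREAM and MYB-MuvB complexes bind, and for the CCAAT box (CCAAT), which the NF-Y factor binds. The homology region was present in 21 of 25 genes (84%), against 30.6% of all 27025 genes with such a sequence. The CCAAT box was present in 22 (88%), against 41.1% of all genes, and 15 (60%) had it more than once, against 13.3%. Both motifs stood in the promoters of 20 genes (80%), against 12.2% of all genes. For comparison, 9 of 31 genes of S phase and replication (29%) had the homology region and 22 (71%) the CCAAT box. The 9 stretches given here are the 120 bases directly before the start of genes on which the tissue comparison turns: 7 of the 8 that passed its test (Kif20a is not shown), and Cdc20 and Ccnb1, which did not pass. They run 5′ to 3′ on the strand of the gene, with the motifs in capitals (TTCAAA and ATTGG are the same motifs read on the opposite strand).
Plk1 (chr7:122159315-122159434, plus strand): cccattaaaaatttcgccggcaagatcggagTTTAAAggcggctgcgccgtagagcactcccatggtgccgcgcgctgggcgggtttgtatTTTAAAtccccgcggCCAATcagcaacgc
Aurka (chr2:172370571-172370690, minus strand): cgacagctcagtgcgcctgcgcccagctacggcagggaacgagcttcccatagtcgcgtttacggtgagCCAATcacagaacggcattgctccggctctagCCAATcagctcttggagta
Cdc20 (chr4:118437344-118437463, minus strand): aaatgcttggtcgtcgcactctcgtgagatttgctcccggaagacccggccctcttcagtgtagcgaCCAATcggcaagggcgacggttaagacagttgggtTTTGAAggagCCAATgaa
Ube2c (chr2:164769809-164769928, plus strand): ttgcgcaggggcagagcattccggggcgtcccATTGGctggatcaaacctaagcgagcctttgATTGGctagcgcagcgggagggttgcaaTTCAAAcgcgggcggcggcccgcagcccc
Ccnb1 (chr13:100786487-100786606, minus strand): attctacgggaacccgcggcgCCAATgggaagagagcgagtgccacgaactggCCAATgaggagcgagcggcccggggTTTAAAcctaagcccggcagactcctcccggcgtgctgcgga
Ttk (chr9:83834569-83834688, plus strand): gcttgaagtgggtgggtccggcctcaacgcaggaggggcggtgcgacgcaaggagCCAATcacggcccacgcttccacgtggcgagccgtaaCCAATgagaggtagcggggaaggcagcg
Top2a (chr11:99024190-99024309, minus strand): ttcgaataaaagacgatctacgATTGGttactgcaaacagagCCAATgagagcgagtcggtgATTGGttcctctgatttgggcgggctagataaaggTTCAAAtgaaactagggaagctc
Kif11 (chr19:37376262-37376381, plus strand): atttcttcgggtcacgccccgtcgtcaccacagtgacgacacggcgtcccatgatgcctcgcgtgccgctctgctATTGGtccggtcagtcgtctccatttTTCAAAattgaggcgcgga
Ckap2 (chr8:22185820-22185939, minus strand): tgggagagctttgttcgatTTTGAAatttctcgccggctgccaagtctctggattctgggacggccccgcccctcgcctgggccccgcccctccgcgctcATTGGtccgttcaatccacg
Of these stretches, 7 hold a homology region and 9 a CCAAT box. In Plk1, Cdc20, Ube2c, Top2a and Kif11 a homology region begins within 30 bases of the start, at positions -29, -18, -29, -23 and -19 counted back from the base before the start. Aurka and Ttk have none in these bases but a match just after the start, within the longer window. The motifs do not sort the genes by tissue difference: the homology region was found in 8 of the 10 genes that measured higher in bone marrow and in 12 of the 14 that measured lower, and the CCAAT box in 9 and 12 (Cenpf left out, as not above background in fetal liver). A match describes the letters only and does not show that a factor binds there.

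Levels are given as the log2 of a probe's signal over the 75th percentile of its array. Between 24385 and 31423 probes of each array were well above background, and the 75th percentile signal was 281 to 743 on the 4 marrow arrays and 211 to 219 on the 2 fetal liver arrays. Each slide carried 1 KO and 1 WT array of the same tissue: fetal liver lay on slide 1, marrow replicate 1 on slide 2 and marrow replicate 2 on slide 3. Trim28 checked the genotype labels, although the labels do not say whether its probe lies in the deleted part: it stood at 1.28 and 0.75 in the marrow KO and 1.68 in the fetal liver KO, against 5.54 in marrow WT replicate 2 and 5.97 in the fetal liver WT. The library labelled marrow WT replicate 1 stood apart, because its scanner file and its column in the authors' deposited value table do not hold the same measurement. Only 1.42% of its probes matched between them within 1%, against 100% in the other samples. The scanner file put Trim28 at 2.45 and Kit, which encodes c-Kit, at 1.30, while the value table put them at 5.18 and 4.16, close to the other WT arrays. Kit was at 4.17 to 4.50 on the other 5 arrays, and Ly6a, which encodes Sca-1, was at 3.36 to 6.04 in marrow and at 0.77 in fetal liver KO and 0.31 in fetal liver WT. B lymphoid markers summed to 451 times the 75th percentile in that scanner file and 25.6 times it in the table. The main counts are therefore given with this sample from each source. Differences of single genes and of gene lists are those with the table unless the scanner file is named.

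Few of the 32 genes differed much between these sources. Between the scanner file and the table, 1 of 32 genes (Ccnb1, at 3.51 against 4.57) differed more than 2-fold for this sample, against 28.3% of all 12876 genes above background in it. The median difference of the 32, file minus table, was -0.25, with values of -1.06 to 0.93. Their median level for it was 2.77 by the scanner file and 3.24 by the table, both within the range of 2.57 to 3.43 spanned by the other 3 marrow arrays.

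**Figure D1:**
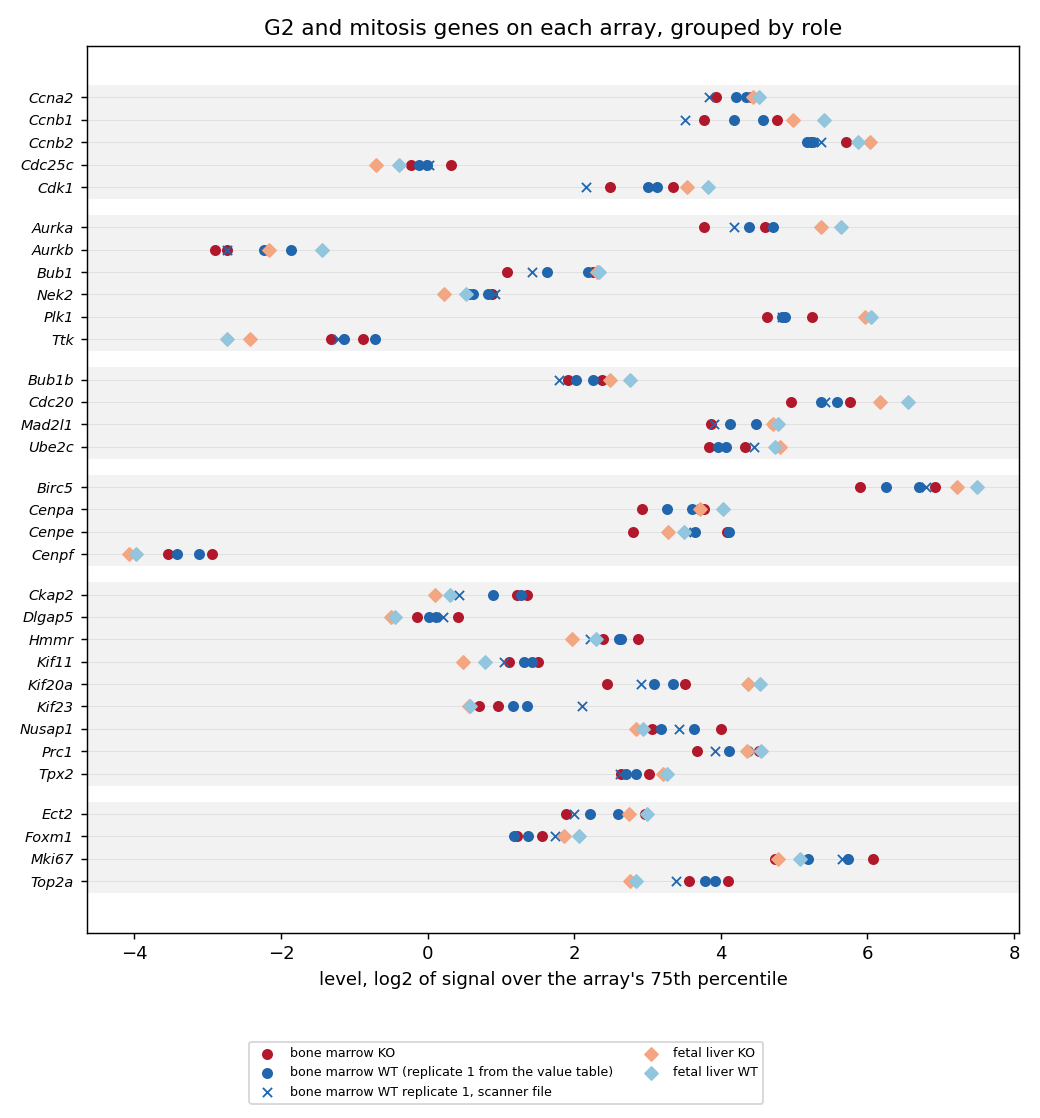
Level of each of the 32 genes on each array (log2 of signal over the array's 75th percentile), grouped by role in the order cyclin-CDK1 core, mitotic kinases, spindle checkpoint and APC/C, centromere and kinetochore, spindle proteins, and chromosome structure, cytokinesis and transcription. Circles are bone marrow arrays, crosses the scanner file of marrow WT replicate 1, and diamonds fetal liver arrays; the fetal liver diamonds of Plk1, Aurka, Cdc20 and Kif20a lie right of all marrow points and those of Ttk, Top2a and Kif11 lie left of them.

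The first comparison set bone marrow against fetal liver, over both genotypes. By the value table, 12 of the 31 genes above background in both tissues measured higher in bone marrow and 19 lower, with a median difference of -0.45 against -0.24 for all 12452 genes tested, and the differences ranged from -1.35 (Kif20a) to 1.56 (Ttk). The limma test called 8 of the 32 (4 higher and 4 lower), which is 25% and close to the 26.6% called among all genes (10.4% higher and 16.1% lower). Plk1, Aurka, Kif20a and Ube2c fell and Ttk, Top2a, Ckap2 and Kif11 rose in marrow. With the scanner file for marrow WT replicate 1 the same test called 0 of 31, against 4.02% of all genes, with 8 (25.8%) at an unadjusted p under 0.05 against 28.8% of all genes, and 12 measured higher and 19 lower. Levels of the 4 marrow and 2 fetal liver arrays did not overlap for 25 of the 31 genes with the table, 10 of them higher in marrow and 15 lower. The share of all genes without overlap was 55.7%. With the scanner file, 24 of 31 did not overlap, against 48.2% of all genes. Set against the median of all genes instead of 0, 12 of the 31 lay above it and 19 below, with either source.

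Fetal liver lay on a single slide, so tissue and slide cannot be told apart for it. With slide as a random block no gene of the 32 was called, and the 8 had the same differences with adjusted p of 0.0621 (Ttk) to 0.164 (Ube2c). Within KO alone limma called 0 of 32, with 7 at an unadjusted p under 0.05, a share of 21.9% against 27.4% of all genes, of which 9.79% were called. Within WT alone it called 0 of 32, with 6 at an unadjusted p under 0.05, a share of 18.8% against 22% of all genes, of which 5.61% were called.

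Under quantile normalization of the table, the median of all genes moved to -0.02 and Ccna2 and Prc1 changed sign. The higher genes then made up 54% of all calls, against 39.3% before.

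Among the cyclin-CDK1 core, 4 of 5 genes measured lower in marrow and 0 were called. Ccnb1, which encodes cyclin B1, stood at 4.76 and 3.77 in marrow KO and at 4.57 (table) or 3.51 (scanner file) and 4.17 in marrow WT, against 4.99 in fetal liver KO and 5.40 in fetal liver WT. All marrow arrays lay below both fetal liver arrays. The difference was -0.88 ± 0.32 with the table (standard error, adjusted p 0.0885) and -1.14 ± 0.42 with the scanner file. Cdk1, the kinase itself, differed by -0.68 ± 0.27, Ccnb2 by -0.61 ± 0.21 and Ccna2, the S and G2 phase cyclin A2, by -0.26 ± 0.21, all with the table. Cdc25c, a phosphatase that activates CDK1, went the other way at 0.54 ± 0.23 (adjusted p 0.126), with all 4 marrow arrays above both fetal liver arrays.

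The mitotic kinases went both ways, with 3 of 6 called. Plk1, the Polo-like kinase of mitotic entry and spindle formation, stood at 5.24 and 4.63 in marrow KO and 4.84 and 4.88 in marrow WT, against 5.96 in fetal liver KO and 6.05 in fetal liver WT. The 2 tissues are cleanly apart, and marrow was lower by -1.11 ± 0.23 (a fold of 0.463, adjusted p 0.0203). Aurka, the Aurora kinase of the spindle poles, stood at 4.60 and 3.77 in marrow KO and 4.71 and 4.39 in marrow WT, against 5.37 in fetal liver KO and 5.64 in fetal liver WT. It differed by -1.14 ± 0.28 (adjusted p 0.0319), again without overlap. Ttk, the kinase that starts the spindle checkpoint, stood at -0.88 and -1.32 in marrow KO and -1.13 and -0.72 in marrow WT, against -2.42 in fetal liver KO and -2.73 in fetal liver WT. This was the largest increase among the 32, at 1.56 ± 0.25 (a fold of 2.96, adjusted p 0.00944), and it was 1.54 ± 0.30 (adjusted p 0.0571) with the scanner file. The checkpoint kinase Bub1 differed by -0.53 ± 0.37, Nek2, a centrosome kinase, by 0.35 ± 0.20, and Aurkb, the catalytic part of the chromosomal passenger complex, by -0.64 ± 0.20 (adjusted p 0.0584).

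All 4 genes of the spindle checkpoint and APC/C group measured lower in marrow, with 1 called. Cdc20, which activates the APC/C, stood at 5.76 and 4.96 in marrow KO and 5.58 and 5.36 in marrow WT, against 6.17 in fetal liver KO and 6.55 in fetal liver WT. Its difference of -0.94 ± 0.27 fell just outside the threshold (adjusted p 0.0503). Ube2c, the ubiquitin-conjugating enzyme that works with the APC/C, stood at 4.33 and 3.84 in marrow KO and 3.96 and 4.07 in marrow WT, against 4.81 in fetal liver KO and 4.73 in fetal liver WT. It was called by a narrow margin at -0.72 ± 0.21 (adjusted p 0.0495), and under quantile normalization it was -0.37 (adjusted p 0.149). The checkpoint proteins Bub1b and Mad2l1 differed by -0.48 ± 0.22 and -0.46 ± 0.28. One of the dimmer of the 3 probes for Mad2l1 gave 0.11.

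In the centromere and kinetochore group 0 of 4 were called. Birc5, which encodes the passenger complex subunit survivin, stood at 6.92 and 5.90 in marrow KO and 6.71 and 6.26 in marrow WT, against 7.23 in fetal liver KO and 7.49 in fetal liver WT. It differed by -0.91 ± 0.33 (adjusted p 0.0831). Cenpa, the histone H3 variant of centromeres, differed by -0.48 ± 0.28. The kinetochore motor Cenpe differed by 0.27 ± 0.38 and had overlapping levels. Cenpf was not well above background on either fetal liver array, and no direction or size is given for it.

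Among the spindle motors and microtubule-associated proteins, 6 of 9 measured higher in marrow and 3 were called. Kif11, the bipolar kinesin that separates the spindle poles, stood at 1.5 and 1.11 in marrow KO and 1.31 and 1.43 in marrow WT, against 0.48 in fetal liver KO and 0.78 in fetal liver WT. It differed by 0.71 ± 0.20 (a fold of 1.64, adjusted p 0.0481). Ckap2, a protein of the spindle microtubules, stood at 1.36 and 1.22 in marrow KO and 0.90 and 1.27 in marrow WT, against 0.10 in fetal liver KO and 0.31 in fetal liver WT, a difference of 0.98 ± 0.21 (a fold of 1.98, adjusted p 0.0232). In the opposite direction, Kif20a, a kinesin of the central spindle, stood at 3.52 and 2.45 in marrow KO and 3.35 and 3.08 in marrow WT, against 4.37 in fetal liver KO and 4.54 in fetal liver WT. Its difference of -1.35 ± 0.32 (a fold of 0.391, adjusted p 0.0295) was the largest decrease among the 32. Nusap1, Dlgap5, Hmmr and Kif23, which bundle or bind spindle microtubules, measured 0.48 to 0.59 higher in marrow without being called. Tpx2, which activates Aurora A on the spindle, and Prc1, which bundles the central spindle, differed by -0.43 ± 0.20 and -0.28 ± 0.28.

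In the last group, Top2a, the topoisomerase that untangles sister chromatids, stood at 4.09 and 3.57 in marrow KO and 3.78 and 3.92 in marrow WT, against 2.76 in fetal liver KO and 2.85 in fetal liver WT. Every marrow array exceeded both fetal liver arrays, and the difference was 1.04 ± 0.22 (a fold of 2.05, adjusted p 0.021). Mki67, which encodes the proliferation marker Ki-67 that coats mitotic chromosomes, differed by 0.50 ± 0.40 with overlapping levels. Foxm1, the transcription factor of the G2 programme, differed by -0.63 ± 0.21 (adjusted p 0.0666) on its brighter probe and by 0.49 on its dimmer one, so its direction depends on the probe. Ect2, which triggers cytokinesis, differed by -0.45 ± 0.34.

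**Figure D2:**
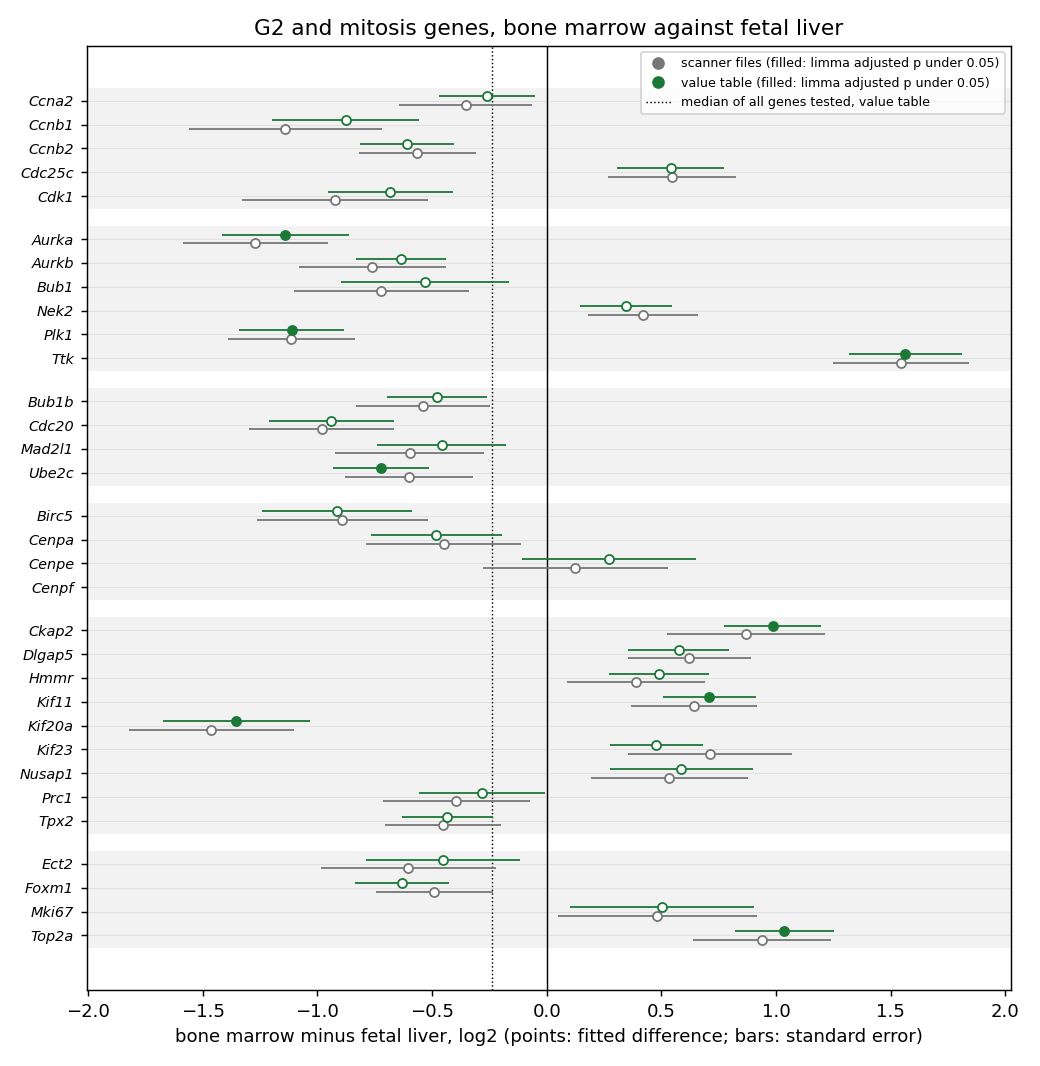
Difference between bone marrow and fetal liver for the 31 genes above background on all arrays (log2; points are fitted differences over 6 arrays, bars standard errors), with marrow WT replicate 1 from the value table (green) or its scanner file (grey). Filled points passed the limma test at an adjusted p under 0.05: Ttk, Top2a, Ckap2 and Kif11 right of 0 and Plk1, Aurka, Ube2c and Kif20a left of it, all with the table.

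The higher and lower genes were compared on a measure that played no part in choosing them. The tissue difference tracked the length of the gene in the genome: with the table, Spearman's rho was 0.60 over the 31 genes above background in both tissues (0.51 with the scanner file), against 0.17 over all 12452 genes tested. Among the shortest were Ube2c (2974 bases), Cdc20 (4443 bases), Birc5 (6507 bases) and Kif20a (8654 bases), all lower in marrow, and among the longer ones Top2a (31253 bases), Ttk (37740 bases) and Kif11 (45482 bases), all higher. Tpx2 (47358 bases), Ect2 (57032 bases), Bub1b (43391 bases) and Bub1 (31663 bases) were long and lower. Nek2 (11601 bases), Cdc25c (18572 bases) and the called gene Ckap2 (17671 bases) were shorter than Top2a and higher. Signal level also went with direction. Ttk, Cdc25c, Dlgap5, Nek2, Ckap2, Kif11 and Kif23, at 0.78 or less on both fetal liver arrays, measured higher in marrow. Aurkb (-2.16 and -1.44) was as dim and lower. Of the genes at 4.37 or more on both, only Mki67 (4.78 and 5.08) measured higher. Genes in between went both ways. All these values come from the same 6 arrays, and the slides differed in brightness, so this is a description without a test. The parts of signal level and array brightness in it were not tested.

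**Figure D3:**
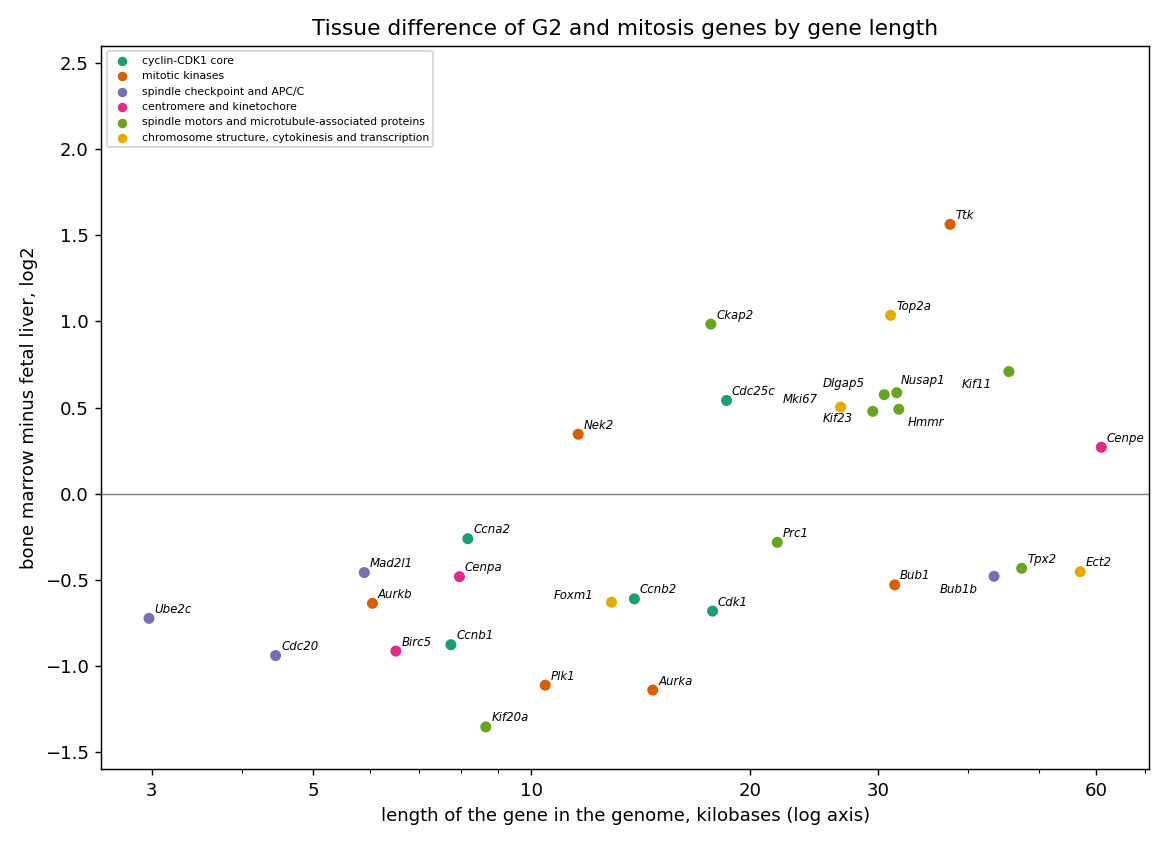
Tissue difference (bone marrow minus fetal liver, log2, value table) against the length of the gene in the genome (kilobases, log axis), 1 point for each of the same 31 genes, coloured by role. The genes at the short end, Ube2c, Cdc20, Mad2l1, Aurkb and Birc5, all lie below 0.

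Summed signals of neutrophil and erythroid marker genes also differed between tissues with the table. Neutrophil markers (9 genes) summed to 275 and 31.1 times the 75th percentile in marrow KO and 1405 and 728 in marrow WT with the table, against 3057 in fetal liver KO and 3215 in fetal liver WT. Erythroid markers (9 genes) summed to 73.1 and 13.6 in marrow KO and 7.53 and 9.39 in marrow WT, against 202 in fetal liver KO and 86.5 in fetal liver WT. By its scanner file, marrow WT replicate 1 reached 1470 for neutrophil markers and 419 for erythroid markers, the latter above both fetal liver arrays. Monocyte and macrophage markers (9 genes) did not separate the tissues with the table. They summed to 45.9 and 40.7 in marrow KO and 177 and 103 in marrow WT, against 137 in fetal liver KO and 153 in fetal liver WT. Between 7 and 9 of the 9 markers of each list were above background on every array. Their part in the differences of the 32 genes was not tested.

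The second comparison, KO against WT, addresses what loss of TIF1b did to these genes. No gene of the 32 was called in bone marrow: by the table, 0 of 32 passed, against 0.876% of all genes, with 1 (3.12%) at an unadjusted p under 0.05, against 11% of all genes. With the scanner file limma called 0 of 32 and 0% of all genes, with 0 of the 32 and 547 of all genes at an unadjusted p under 0.05. Over both tissues together limma called 0 of 31 with either source, against 0.47% of all genes with the table and 0.00838% with the scanner file. At an unadjusted p under 0.05 there were 1 (3.23%) and 0, against 11.2% and 3.51% of all genes. Averaged over the marrow pairs, KO minus WT differences of the 32 with the table had an SD of 0.21 between genes and a median of -0.04. All genes tested had an SD of 0.72 and a median of -0.05. With the scanner file the SD was 0.27, against 0.91 for all genes.

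Beneath those small averages, the pairs of arrays moved as blocks and in opposite ways. In fetal liver 28 of 31 genes measured lower in KO, with a median of -0.21 against -0.07 for all genes, of which 42.2% were higher. In marrow pair 2 all 32 measured lower in KO, with a median of -0.35 against -0.08 for all genes. In marrow pair 1 the opposite was seen, with 27 of 32 higher in KO (median 0.44, all genes 0.19) from the scanner file and 28 of 32 higher (median 0.26, all genes 0.01) from the table. These are single arrays against single arrays, and genes on an array are not replicates, so no test is attached. Fetal liver kept its direction under quantile normalization, with 25 of 31 lower in KO. The opposed signs of the marrow pairs held under quantile normalization, where 28 of 32 were higher in pair 1 and 31 of 32 lower in pair 2 with the table, and under normexp background correction of the scanner files, where the counts were 28 higher and 32 lower.

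Replicates of the KO were no closer to each other. Marrow KO replicate 1 was above KO replicate 2 in all 32 genes, by a median of 0.58 against 0.17 for all genes, and by 0.14 (Ckap2) to 1.34 (Mki67). The 2 marrow WT arrays, with the table, differed by a median of -0.03, replicate 1 being higher in 15 genes and lower in 17, and with the scanner file by -0.20, higher in 12 and lower in 20. The median distance between the 2 KO replicates exceeded the KO minus WT median in every pair. Differences over 2-fold were seen in 6 of 32 genes between the KO replicates (all genes 13.2%), in 0 of 31 between KO and WT in fetal liver (all genes 9.75%), in 0 of 32 in marrow pair 1 with the table (all genes 12.1%) and 4 of 32 with the scanner file (all genes 31.9%), and in 1 of 32 in marrow pair 2 (all genes 11%). Of 9 erythroid markers, 8 measured higher in marrow KO replicate 1, and their sum was 73.1 there and 13.6 in KO replicate 2, with Hba-a1 (5.80 and 1.58) making up 76.4% of the larger sum. Of 9 neutrophil markers, 5 measured higher and 4 lower. Their sums were 275 and 31.1, with Mpo (7.99 and 4) making up 92.4% of the larger, while their median levels were 0.93 and 1.29. KSL markers summed to 389 and 328 in these arrays. The part of other cells in the contrast between them was not tested.

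**Figure D4:**
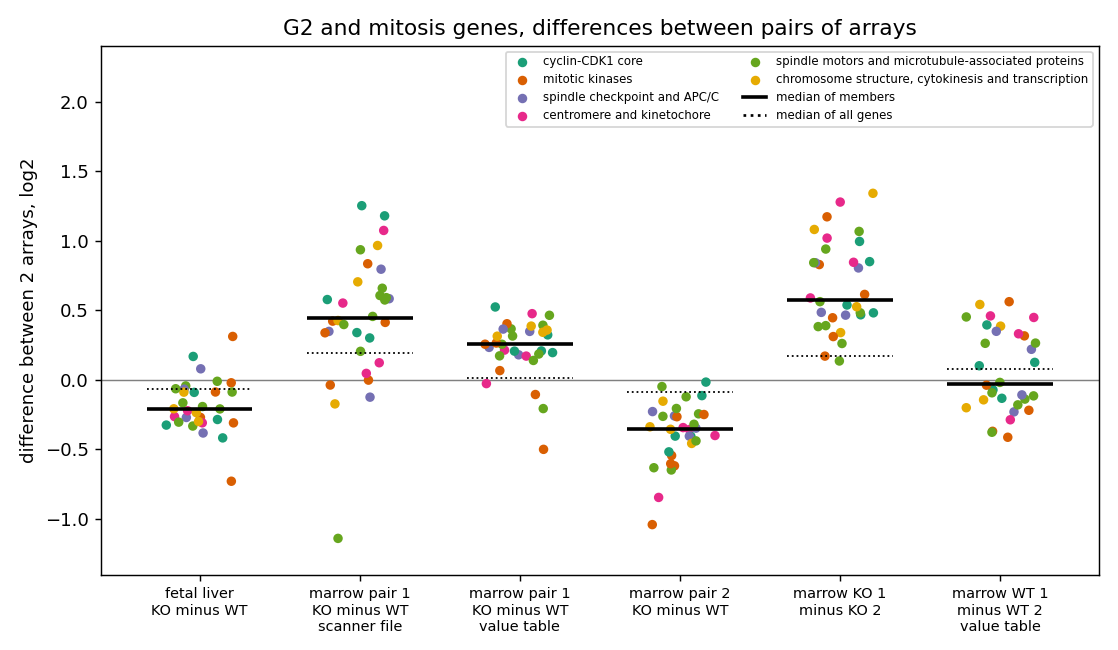
Differences between 2 arrays (log2) for the 32 genes, 1 point per gene, coloured by role. Solid lines are the medians of the 32, dotted lines the medians of all genes above background on either array; in marrow pair 2 every point lies below 0, in marrow pair 1 27 or 28 of 32 lie above it, and all 32 lie above 0 between the marrow KO replicates.

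Of the 31 genes above background throughout, 4 were lower in KO in all 3 pairs with each source, and 0 were higher in all 3. The same count was not made over all genes, so it is not read as a result about the 32. Aurkb and Kif23 were in both sets of 4. Their places there rest on differences as small as -0.0017 (Aurkb, marrow pair 1, scanner file) and -0.01 (Kif23, fetal liver). Aurkb stood at -2.73 and -2.90 in marrow KO and -2.23 (table) or -2.73 (scanner file) and -1.87 in marrow WT, and at -2.16 in fetal liver KO against -1.44 in fetal liver WT. KO minus WT was -0.50 in marrow pair 1 with the table and -0.0017 with the scanner file, -1.04 in marrow pair 2 and -0.73 in fetal liver, so the size in marrow pair 1 depends on the source. The difference over both tissues was -0.76 ± 0.18 with the table (unadjusted p 0.00581, adjusted p 0.209) and -0.59 with the scanner file. With slide as a fixed block it remained -0.76 (adjusted p 0.137). No other gene of the 32 reached an unadjusted p under 0.05 in that comparison. Kif23, a kinesin of the midzone that is needed for cytokinesis, stood at 0.96 and 0.70 in marrow KO and 1.17 (table) or 2.10 (scanner file) and 1.35 in marrow WT, and at 0.56 in fetal liver KO against 0.57 in fetal liver WT. Its marrow difference was -0.43 ± 0.26 with the table and -0.89 ± 0.44 with the scanner file, so the size rests on which source is used for marrow WT replicate 1.

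Many central genes of the list, though not Aurka or Aurkb, averaged close to 0 between genotypes in marrow. With the table, KO minus WT was -0.10 ± 0.40 for Ccnb1, -0.16 ± 0.35 for Cdk1, 0.08 ± 0.30 for Plk1, -0.11 ± 0.35 for Cdc20, -0.02 ± 0.29 for Top2a, -0.06 ± 0.50 for Mki67, 0.12 ± 0.27 for Foxm1, 0.05 ± 0.27 for Tpx2 and 0.00 ± 0.29 for Bub1b. The standard errors of 0.27 to 0.50 leave room for differences of that order in either direction. Each of these averages joins marrow pairs of opposite sign, as for Mki67, at 0.34 in pair 1 and -0.46 in pair 2. Aurka was -0.36 ± 0.36 and Cenpe -0.44 ± 0.48, and Ccnb2, at 0.25 ± 0.28, had the largest positive difference. Over all 32, the differences ran from -0.77 (Aurkb) to 0.25. With the scanner file they ran from -0.89 (Kif23) to 0.44 (Ckap2), with Ccnb1 at 0.42, Cdk1 at 0.33 and Cdc20 at -0.03.

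The tissue by genotype interaction asked whether the genotype difference in marrow departed from that in fetal liver. Limma called 0 of 32 with either source, as it did for 0% of all genes, with 0 of the 32 at an unadjusted p under 0.05, against 7.04% of all genes with the table and 2.57% with the scanner file. The median interaction was 0.13 with the table, where 23 of 32 were positive, against 0.02 and 51.9% positive for all genes. It was 0.19 with the scanner file, where 28 were positive, against 0.12 and 57.9% for all genes. It rests on a single fetal liver pair.

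Genes that act with the 32 were tested between tissues in the same fits, in which 26.6% of all genes were called and 37.1% measured higher with the table, and 4.02% and 34.4% with the scanner file. Of 65 other mitosis genes tested with the table, 8 (2 higher, 6 lower) were called, and 1 with the scanner file. In marrow Ckap2l, a spindle protein, rose by 1.80 ± 0.24 and Depdc1a by 1.08 ± 0.20, while Trip13, which disassembles checkpoint complexes, fell by 1.1, Tacc3, a spindle protein, by 1.03, and Cdca8, the passenger complex subunit borealin, by 0.98. Zwint, Zw10 and Ccnf fell too. Of the 16 APC/C subunits and inhibitors tested, 15 measured lower in marrow and 5 were called with the table, against 0 with the scanner file. The 5 were all lower: the subunits Anapc1 (-1.02 ± 0.21), Anapc2 (-1.02 ± 0.18), Anapc11 (-0.93 ± 0.26) and Anapc15 (-0.94 ± 0.26), and Ube2s (-1.02 ± 0.28), the second ubiquitin-conjugating enzyme of the complex. Among 23 regulators of mitotic entry and transcription, 4 rose and 2 fell in marrow with the table, and 0 were called with the scanner file. Rb1, Rbl1 and Rbl2, the retinoblastoma family that restrains the cell cycle, rose by 0.94 ± 0.20, 1.04 ± 0.22 and 1.17 ± 0.29, and the phosphatase Cdc25b by 0.99 ± 0.19. Mybl2, the MYB of the MYB-MuvB complex, fell by 1.23 and the phosphatase Cdc25a by 1.14.

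Of 39 genes of S phase and replication, 7 were called between tissues with the table, against 26.6% of all genes, 5 lower and 2 higher in marrow. With the scanner file 1 was called. By the table, 32 of 39 measured lower and 17.9% higher, against 37.1% higher among all genes. Ccne1, which encodes cyclin E1, fell by 2.02 and Uhrf1, which maintains DNA methylation behind the fork, by 1.39, while Pola1, a subunit of the replicative polymerase alpha, rose by 1.05 ± 0.28. Between genotypes, with the table, 31 of 39 were lower in KO in fetal liver (median -0.14), 37 of 39 lower in marrow pair 2 (median -0.33) and 26 of 39 higher in marrow pair 1 (median 0.10). With the scanner file for marrow WT replicate 1, 38 of 39 were higher in KO in pair 1, with a median of 0.84.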

How the data were processed

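RNA of KSL cells (10 ng of total RNA per sample) was amplified and Cy3-labelled for 1-colour arrays, per the labels' protocols. The scanner files deposited by the authors hold the intensity of 62976 spots per array and, as the submitters' processing notes state, came from version 10.7.1.1 of Agilent's Feature Extraction. Their processed signal is background-corrected, per the file headers. The authors also deposited a value table holding a ratio per probe, which for 5 of 6 samples equalled the scanner signal over a constant, and whose scaling is not given in the sources used here.

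Outlier spots were left out, spots of a probe averaged, and the log2 taken of the deposited signal or ratio over each array's 75th percentile. Genes had to be well above background on all arrays of at least 1 group compared. For the table column of marrow WT replicate 1, a level above -3.7 stood in for the scanner's background call. That cutoff best matched the scanner's calls on marrow KO replicate 1, at 99.15% of probes. All genes were fitted together with limma 3.58.1 (R 4.3.3), with tissue and genotype as terms where both varied, Benjamini-Hochberg adjustment and a threshold of 0.05. Alternatives were normexp background correction (offset 50, on median spot and background signals), quantile normalization, other filters, the mean of all probes, slide as a block and leaving out each marrow array. The replicate number of marrow samples coincides with the slide, and same-numbered samples deviated together with a correlation of 0.64 with the table and 0.09 with the scanner file. The fits were tested on simulated data with independent noise, large changes and no slide effect. That setting is simpler than these arrays, so it does not measure how often the fits miss or miscall genes here. The members and lists were chosen with earlier results of these data known. Every gene named on its own was a listed central gene, passed a test, or had one of the 3 highest or lowest differences of a comparison, apart from those chosen to illustrate a gene group after their values were seen. The number of arrays limits precision.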

Additional observations from a re-analysis of the deposited data

How the results depend on the processing

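With the value table, the count of the 32 genes called between bone marrow and fetal liver was 8. It was 1 with no filter on dim probes, 0 with the replicate block (slide as a random term), and 0 within KO alone and 0 within WT alone, taken from the tissue by genotype model. Leaving out a marrow array gave 1 to 11: 3 without marrow WT replicate 1 and 1 without marrow WT replicate 2. With the scanner file it was 0, and leaving out a marrow array gave 0 to 3, with Ttk, Top2a and Ckap2 passing once the file of marrow WT replicate 1 was left out. The cause of these moves was not tested. Some of the alternatives had fewer samples or more genes in the fit. No difference of the 8 changed sign under any alternative tried. The counts of KO against WT calls and of interactions were 0 under every alternative run, the fixed slide block included, which for the interaction was chosen after seeing the data. The random slide block could not be fitted for the interaction. The median KO minus WT of the 32 in fetal liver, -0.21, kept its sign in the alternatives run.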

Other observations

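Birc5, Cdk1, Ccnb1 and Cdc20 passed the tissue test with the value table once marrow KO replicate 1 was left out, with differences of -1.15, -0.87, -1.11 and -1.13. That array held the highest median level of the 32 genes among the marrow arrays, 3.43, against 2.57 in marrow KO replicate 2, 3.24 in marrow WT replicate 1 and 3.05 in marrow WT replicate 2, and 3.03 in fetal liver KO and 3.13 in fetal liver WT.

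Probes of the same gene did not always go the same way. Among the 9 genes with several probes, Foxm1 and Mad2l1 had probes of opposite sign between tissues. For KO minus WT in fetal liver, Ube2c, Foxm1, Cdk1 and Mad2l1 had probes of opposite sign. In marrow with the table, Mki67, Foxm1, Dlgap5 and Mad2l1 did. The direction counted for these genes is that of the brightest probe.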
